A study of Mus musculus with 6 samples.

Results

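The annexins are proteins that bind negatively charged phospholipids when calcium is present. Each carries a conserved core of annexin repeats behind an amino-terminal tail that differs between members and sets its partners. They take part in membrane repair, vesicle traffic and the control of inflammation, and in the inner ear they are found in sensory, supporting and immune cells. The 10 annexins described here (Anxa1 to Anxa9 and Anxa11) were taken by symbol from a table of 52636 genes. They were chosen on these same measurements, with the IDPN and Control counts of the 6 libraries already known, so their differences between groups are given as a description, without a test. The deposited table types 12 annexin symbols as protein-coding. Of those near the limit of detection, Anxa8 lies inside the set with 10 counts in 1 library, and Anxa10 and Anxa13 lie outside it with 0 counts in every library, which at the shallowest library allows up to 0.0741 counts per 1000000 (3 counts, counting error only).

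The tissue was the vestibular epithelium of adult male 129S1/SvImJ mice, measured by bulk RNA-seq in 3 Control animals on plain drinking water and in 3 animals given IDPN. IDPN (3,3'-iminodipropionitrile) is a nitrile that damages the inner ear's hair cells (HCs), the sensory receptors, here at 30 mM in the drinking water for 8 weeks. Each library pooled 2 utricles and 6 cristae of 1 animal and was made from 6 to 11 ng of RNA by oligo-dT priming (SMART-seq2, 8 and 12 cycles of amplification), without molecular identifiers. Cells were not sorted. All Control titles carry the same code stem, which is absent from the IDPN titles. Within the IDPN group, the stem of IDPN 1 differs from that of IDPN 2 and IDPN 3. The meaning of these stems is not stated. Any effect of what the Control stem marks would be mixed with that of the exposure.

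Libraries held between 40474847 and 43566332 estimated counts. All 15 HC markers and all 14 supporting cell markers of the labelled tissue were detected. The library IDPN 2 stood apart. Its summed normalized count over epithelial keratin and related markers was 364921, against 60038 to 90955 in the other 5 libraries, although Krt14 was at 0 throughout. Where leaving out IDPN 2 turned a sign or ended a call below, the value without it is given. Genes are named as called where DESeq2 gave a Padj (the p after Benjamini-Hochberg adjustment over all genes) under 0.05 together with a fold change above 1.5. Of 17650 genes tested, 410 were called higher and 604 lower in IDPN, or 609 and 214 when libraries were scaled by total counts, a scaling that raised the median gene by 0.25 on the log2 scale.

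The gene for Anxa1, a glucocorticoid-regulated inhibitor of inflammation that signals through formyl peptide receptors, lies on the minus strand of chromosome 19 from 20373428 to 20390944 (GRCm38) and encodes 346 residues. Anxa2, which pairs with S100A10 at the plasma membrane, lies on the plus strand of chromosome 9 from 69453620 to 69491795 and encodes 339 residues. In RefSeq promoters (GRCm38.p6), found for 8 of the 10 members and not for Anxa3 and Anxa6, the letters TATAAA occurred on either strand in the 250 bases before the start only in the Anxa1 and Anxa2 windows. Of all 32851 promoters, 12.4% held these letters. The stretches around them are shown because they hold the only TATA letters among the members, on the gene's strand and with TATAAA in capitals. In Anxa1 the letters begin 32 bases before the RefSeq start and in Anxa2 17 bases before it. The gene spans given above come from another annotation (GENCODE), whose starts differ, and both stretches lie inside those spans.
Anxa1, chr19:20390686-20390715, minus strand: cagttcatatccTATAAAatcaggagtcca
Anxa2, chr9:69453653-69453682, plus strand: aggatggggcgggTATAAAagccccaccca
No member window held the letters of a glucocorticoid response element (GNACANNNTGTNC, in 0.387% of all promoters) or the interferon-stimulated response element core (GAAANNGAAA, in 2.98%). The AP-1 letters TGANTCA (6.75% of promoters) occurred once among the members, 95 bases before the Anxa2 start. The absence of these letters covers these windows alone.

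Annexin transcripts spanned more than 2 orders of magnitude in Control tissue, and Anxa5 made up most of them. With counts divided by exon length and scaled to an equal sum in every library (1000000), Anxa5, which binds exposed phosphatidylserine, had a Control level of 2100.1 ± 159 (SD, n = 3) and ranked 46 among all genes. Anxa2 followed at 199.7 ± 22.8 and Anxa6, the annexin with a doubled core (673 residues), at 111 ± 8.54. Anxa1 had rank 4 at 60.3 ± 8.84, ahead of Anxa4, an epithelial annexin, at 38.8 ± 2.31 and Anxa7, a membrane-fusion annexin, at 33.4 ± 3.71. Anxa3, Anxa9 and Anxa11 were far lower, at 4.25 ± 1.28, 3.78 ± 0.82 and 3.56 ± 1.11. The Control libraries of each neighbour in this order were apart down to Anxa7 against Anxa3, whereas those of Anxa3, Anxa9 and Anxa11 overlapped. With the length of the longest transcript in place of all exons, Anxa4 and Anxa7 changed places, and so did Anxa9 and Anxa11.

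After IDPN, Anxa1 was the annexin that stood out. Its normalized counts (counts divided by the DESeq2 size factor) were 3932, 4693 and 2702 across Control 1 to 3, against 11096, 15471 and 21337 across IDPN 1 to 3. The lowest IDPN library lay above the highest Control library. Means were 3776 ± 1005 and 15968 ± 5139 (SD, n = 3), a 4.23-fold difference and a fitted log2 fold change of 2.08 with a standard error (SE) of 0.24. Without IDPN 2 the log2 fold change was 2.10, and over the 6 fits that each left out 1 library it lay between 1.81 (without IDPN 3) and 2.29 (without IDPN 1). In bulk tissue, more RNA per cell and more cells that carry it cannot be told apart.

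**Figure D1:**
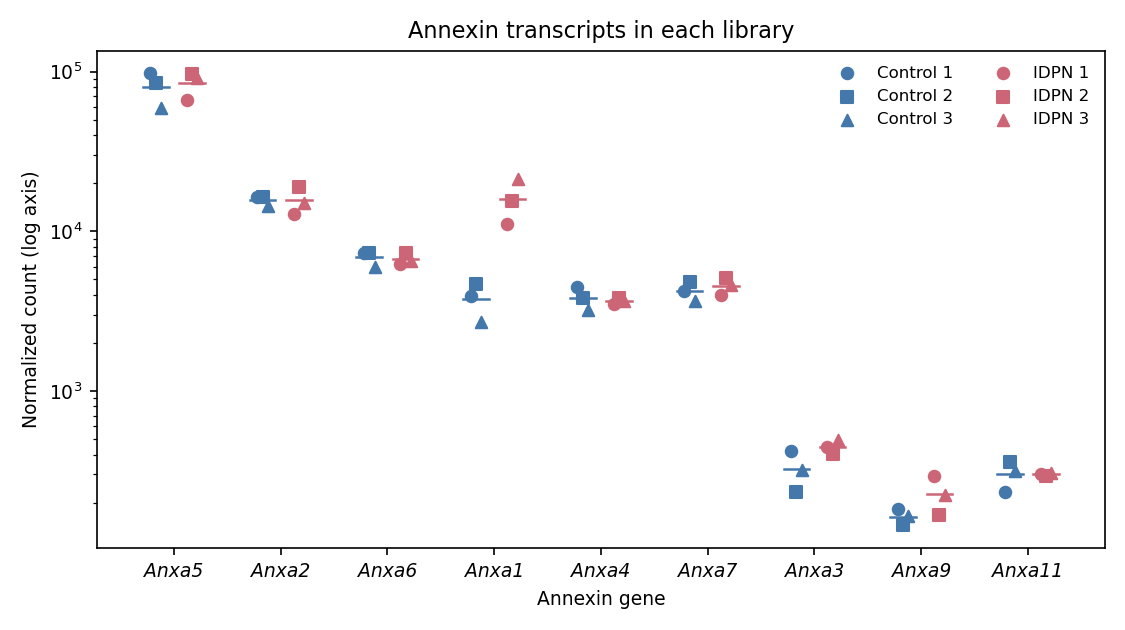
Normalized counts of the 9 annexins that had an adjusted p, on a log axis, with 1 point per library and a line at the group mean. The IDPN points of Anxa1 (11096 to 21337) sit above its Control points (2702 to 4693), and for the other annexins the points of the groups overlap.

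Anxa1 was the 1 member of 9 with an adjusted p that was called higher, and 0 were called lower. Of all genes tested, 2.32% were called higher and 3.42% lower. Since the members were chosen with these values known, nothing is read from the comparison of these shares. The other 8 members overlapped between the groups, and 0 fell at an unadjusted p under 0.05 in DESeq2 or were called lower in edgeR. No member had every IDPN library below every Control library, which 11.4% of all genes did, and Anxa1 was the single one with every IDPN library above, which 11.1% did. The median log2 fold change over the 9 was 0.08, beside 0.02 over all genes tested.

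Among the abundant annexins, differences were small against the spread of the libraries. Anxa5 counts were 97419, 84294 and 59149.9 in Control and 66331, 96268 and 91352 in IDPN, so that the lowest and the highest library were both Control (log2 fold change 0.08, SE 0.21). The sign of the Anxa5 value turned without Control 3 (-0.10) or without IDPN 2 (-0.03). Anxa2 counts were 16373, 16390.0 and 14304 in Control and 12808, 18891 and 15099 in IDPN (log2 fold change -0.01, SE 0.18). IDPN 2 was the highest library for Anxa2, and IDPN 1 the lowest, and without IDPN 2 the log2 fold change was -0.17.

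Anxa6, Anxa4 and Anxa7 varied least. Anxa6 counts ran from 6012 to 7357 in Control and from 6222 to 7278 in IDPN (log2 fold change -0.05, SE 0.16). Anxa4 ran from 3192 to 4461 in Control and from 3483 to 3792 in IDPN (log2 fold change -0.07, SE 0.17). Anxa7 ran from 3679.7 to 4782 in Control and from 3964 to 5095 in IDPN (log2 fold change 0.11, SE 0.17). Each range of IDPN overlapped that of Control, and together with Anxa2, Anxa5 and Anxa11 these made 6 members within 1 SE of no difference.

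The low annexins Anxa3 and Anxa9 had the larger differences among the other members. Anxa3, known from neutrophils and epithelia, had 419.6, 232 and 321 normalized counts in Control and 444, 405 and 496 in IDPN (log2 fold change 0.47, SE 0.24). Control 1 lay within the IDPN values, while the other Control libraries lay below all of them. Anxa9, whose core has lost calcium-binding residues, had 182, 144 and 165 counts in Control and 295, 167 and 222 in IDPN (log2 fold change 0.48, SE 0.27). For Anxa9, IDPN 2 lay among the Control libraries, and the log2 fold change was 0.66 without it and 0.25 without IDPN 1. These were the 2 members between 1 and 2 SE from 0.

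Anxa11, linked to RNA granules on lysosomes, had 233, 361 and 318 normalized counts in Control and 303, 295 and 305 in IDPN (log2 fold change -0.01, SE 0.23). Its value is uncertain, because 14.9% of its 76-base windows occur also in the pseudogenes Gm2260 and Gm2274 or the opposite-strand gene Anxa11os, which held 0 to 41, 0 to 26 and 0 to 3 counts per library. For the other members this share was between 0 and 1.09%. Anxa8 had a normalized count of 8.28 in IDPN 1 and 0 in the other 5 libraries, and no fold is given for it.

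The direction given for some members depended on scaling. Under total-count scaling all 9 log2 fold changes were above 0, so the signs of Anxa2, Anxa4, Anxa6 and Anxa11 turned (0.23, 0.20, 0.21 and 0.23), while Anxa1 stood at 2.35. Leaving out a single library turned the sign of Anxa2, Anxa4, Anxa5, Anxa6 and Anxa11 at least once, with values between -0.18 and 0.23. In counts per 1000000, 6 members (Anxa1, Anxa2, Anxa3, Anxa5, Anxa6 and Anxa7) had every IDPN library above every Control library, against 19.3% of all genes. The difference of Anxa1 was the largest of the 9 under both scalings.

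**Figure D2:**
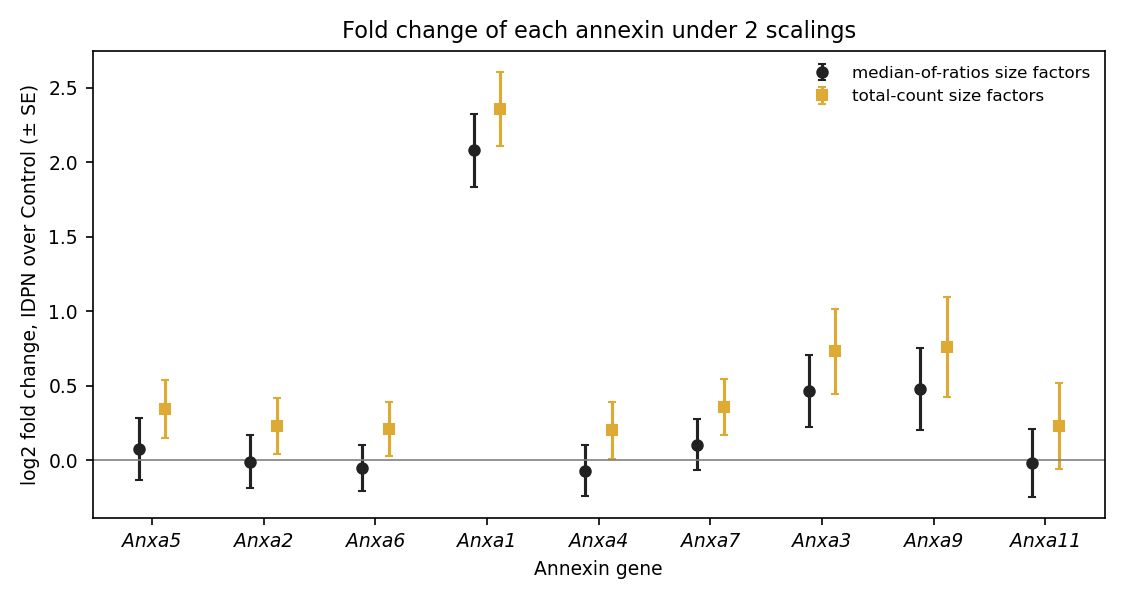
Fitted log2 fold change of IDPN over Control for 9 annexins (points) with its standard error (bars), under median-of-ratios and under total-count size factors. Anxa1 sits at 2.08 and 2.35, and the other 8 lie between -0.07 and 0.76.

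The make-up of the annexin pool does not depend on the scaling between libraries. Of the summed length-scaled level, Anxa5 held 84.4%, 82.1% and 79.9% in Control and 77.0%, 78.6% and 76.9% in IDPN. Anxa1 held 2.08%, 2.79% and 2.23% in Control and 7.87%, 7.71% and 11.0% in IDPN. The groups did not overlap for either gene. Shares of a pool trade off, so a larger Anxa1 share by itself lowers that of Anxa5. The normalized counts of Anxa5 overlapped between the groups. Anxa1 moved from rank 4 to rank 2 among the annexins, and from rank 1229 to rank 284 among all genes. The length-scaled ratio of Anxa1 to Anxa2 was 0.308, 0.367 and 0.242 in Control and 1.11, 1.05 and 1.81 in IDPN. The size of the whole pool, unlike its make-up, did depend on scaling. The summed normalized count of the 10 members was 1.14-fold higher in IDPN, and 1.04-fold without Anxa1, in both cases with overlapping libraries. The summed length-scaled level was 1.45-fold higher (2447 to 2691 in Control, 3381 to 4035 in IDPN), and 1.35-fold without Anxa1 (2393 to 2635 in Control, 3115 to 3593 in IDPN), in both cases without overlap.

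**Figure D3:**
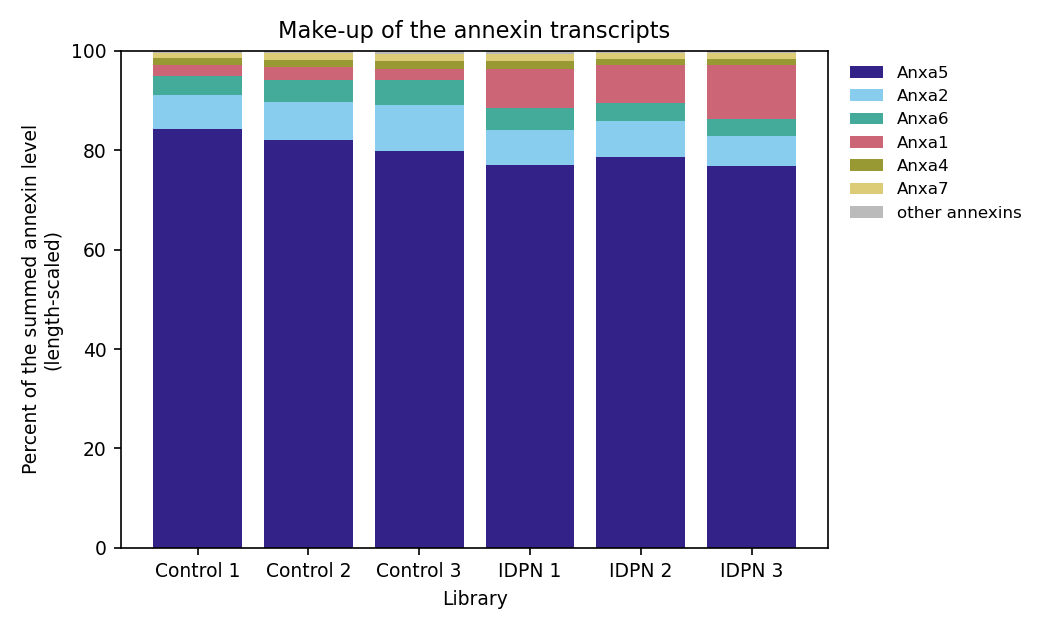
Share of each annexin in the summed length-scaled annexin level of each library (bars stack to 100%). The Anxa1 band widens from 2.08% to 2.79% in Control to 7.71% to 11.0% in IDPN, and Anxa5 fills most of every bar.

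Several cell type markers moved with the groups beside Anxa1. The summed normalized count of 14 macrophage markers, all detected, was 6230.5 to 7933 in Control and 8828 to 13501 in IDPN, with 1 of the 14 called higher (Lyz2). Lyz2 made up 57.6% to 67.6% of that sum. The sum of the other 13 markers overlapped between the groups (2496 to 3336 in Control, 3003 to 4369 in IDPN). Of these, C1qc, Cd68, Mrc1 and Fcer1g had every IDPN library above every Control library, as did 11.1% of all genes. By the sign of the log2 fold change, 12 of the 14 macrophage markers were higher and 2 lower. At an unadjusted p under 0.05 in DESeq2, 6 were higher, and 0 were called in edgeR. The sum of 8 melanocyte markers was 6694 to 14851 in Control and 15018 to 22925 in IDPN, with 0 called. The HC sum was lower (30686 to 34605 against 21296 to 21813, with 9 of 15 called), as was the supporting cell sum (410918 to 610777 against 301516 to 367165, with 2 of 14 called). Gjb6, Sparcl1 and Gjb2 weighed most in the supporting cell sum, with Control means of 147249, 135459 and 105468. By sign, 2 supporting cell markers were higher, among them Hes1, without overlap, and 12 were lower. In edgeR, 8 HC markers and 0 supporting cell markers were called lower. The sum of 8 mast cell markers was lower too (1256 to 1438 against 460.1 to 648), but Kit, which other cell types also express and which was called lower, made up at least 91.4% of it in each library. The other 7 mast cell markers summed to 14.2 to 40.4 in Control and 6.53 to 55.4 in IDPN. Neutrophil markers, a cell rich in Anxa1, summed to 37.4 to 70.4 in Control and 41.1 to 87.4 in IDPN, with the defining genes Ly6g and Elane at 0. The sums of stroma, endothelium, Schwann, dark and transitional, epithelial and erythroid markers overlapped between the groups, with 0, 1, 1, 1, 1 and 4 genes called. The part of these cells in the Anxa1 difference was not tested.

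Genes whose levels over the 6 libraries were among the most like those of Anxa1, of 11112 compared, were Tamm41 (Pearson r = 0.995 on log2 values), D10Wsu102e (0.990), Inmt (0.987) and Luc7l2 (0.986). Tamm41 encodes a mitochondrial lipid enzyme and Inmt an amine methyltransferase. With 3 libraries on each side, a gene that differs between the groups shares much of this likeness through the groups alone. Inmt was called higher (log2 fold change 1.65, SE 0.24, DESeq2 Padj = 9.19e-10), and D10Wsu102e too (0.76, SE 0.16, DESeq2 Padj = 2.21e-04). Among the annexins themselves, Anxa4, Anxa5 and Anxa6 followed each other (r from 0.838 to 0.841 over the same libraries). Other pairs came near, such as Anxa2 with Anxa6 (0.825) and Anxa5 with Anxa7 (0.807), but Anxa4 with Anxa7 did not (0.463). Anxa1 had r = 0.00 with Anxa4, 0.02 with Anxa6 and 0.41 with Anxa5. Its r was 0.63 with Anxa3, 0.55 with Anxa7 and 0.51 with Anxa9.

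Partners of the annexins were read from lists of 88 genes, of which 73 had an adjusted p, 3 were called higher and 6 lower in DESeq2. Of all genes tested, 2.32% were called higher and 3.42% lower in DESeq2. In edgeR the counts over the partner lists were 0 higher and 4 lower. The S100 proteins bind annexin tails. Of the 7 genes on this list, which also holds the scaffold gene Ahnak, 3 were called lower, against 3.42% of all genes tested. S100b fell from 162040 ± 45465 to 82562 ± 6674 normalized counts (SD, n = 3), by 0.97 on the log2 scale (DESeq2 Padj = 1.56e-04), and S100a1 from 116604 ± 24121 to 71497 ± 14462, by 0.71 (DESeq2 Padj = 0.0132). S100a6 fell from 841 ± 87.8 to 532 ± 68.8, by 0.66 (DESeq2 Padj = 0.0110). The IDPN libraries of all 3 lay below all Control libraries. The S100a1 and S100a6 calls were lost under total-count scaling, at DESeq2 Padj = 0.192 and 0.272, and the S100b and S100a1 calls were lost in edgeR, at adjusted p = 0.0844 and 0.185. Leaving out 1 library ended the S100a1 call in 3 of 6 fits and the S100a6 call in 4 of 6 (highest DESeq2 Padj = 0.183 and 0.103, both without Control 2).

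The partner of Anxa2, S100a10, was not called. It had 2788, 2762 and 2635 normalized counts in Control and 2381, 6133 and 2766 in IDPN, so that IDPN 2 alone lay far above (log2 fold change 0.46, SE 0.28, DESeq2 Padj = 0.416). Without IDPN 2 the S100a10 log2 fold change was -0.08. S100a11, the partner of Anxa1, ran from 2202 to 3733 in Control and from 1678 to 3633 in IDPN (log2 fold change -0.27, SE 0.26, DESeq2 Padj = 0.691). Ahnak, a scaffold for Anxa2 and S100a10, differed by 0.06 (SE 0.17, DESeq2 Padj = 0.917).

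In the plasminogen system, which the Anxa2 and S100a10 complex helps to activate at the cell surface, 2 of 5 tested genes were called higher. The share over all genes tested was 2.32%. Plau (urokinase) had 9.70, 3.46 and 7.12 normalized counts in Control and 19.0, 55.2 and 26.1 in IDPN (log2 fold change 2.30, SE 0.72, DESeq2 Padj = 0.0281). Its receptor Plaur had 15.8, 9.23 and 8.90 in Control and 15.7, 158.6 and 28.0 in IDPN (log2 fold change 2.58, SE 0.74, DESeq2 Padj = 0.0123). Both are low, and IDPN 2 was the highest library for both. Without it the Plaur log2 fold change was 0.96 (DESeq2 Padj = 0.695) and that of Plau 1.74 (DESeq2 Padj = 0.370). Both calls were also lost without Control 2 (DESeq2 Padj = 0.106 for Plaur and 0.155 for Plau) or Control 3 (0.0605 and 0.0578), and the Plau call without IDPN 3 (0.0833). Both were lost in edgeR, at adjusted p = 0.142 and 0.0843. Plat, the tissue activator, was abundant, at 15872 to 19873 in Control and 16170.1 to 34023 in IDPN with IDPN 2 the highest (log2 fold change 0.37, SE 0.25, DESeq2 Padj = 0.494, and -0.07 without IDPN 2). Plg was at 0 in 3 of the 6 libraries.

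The receptors of Anxa1 were close to undetected. Fpr1 stood at 0, 0 and 1.78 normalized counts for Control against 13.2, 1.00 and 1.87 for IDPN, and Fpr2 had 0 in every Control library and 2.48, 2.01 and 1.87 in IDPN. Neither had an adjusted p. Pla2g4a, the cytosolic phospholipase that Anxa1 restrains, differed by 0.34 (SE 0.37, DESeq2 Padj = 0.740), and 0 of the 5 tested genes of this list were called. In that count, 1 gene was higher at an unadjusted p under 0.05 in DESeq2 and 0 were called in edgeR.

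Genes known to respond to glucocorticoids, as Anxa1 does, included 1 called gene of 10 tested, and it was lower. By the sign of the log2 fold change, 9 of the 10 were higher in IDPN and 1 lower. At an unadjusted p under 0.05 in DESeq2, 1 was higher and 1 lower. Hsd11b1, which regenerates active glucocorticoid, had 3583, 2789 and 3427 normalized counts in Control and 1814, 1294 and 1559 in IDPN (log2 fold change -1.07, SE 0.18, DESeq2 Padj = 5.99e-07). Tsc22d3, a classical target, ran from 2378 to 7845 in Control and from 3195 to 11651 in IDPN (log2 fold change 0.67, SE 0.70, DESeq2 Padj = 0.718, and 0.18 without IDPN 2). The receptor gene Nr3c1 differed by 0.22 (SE 0.22, DESeq2 Padj = 0.695). The list had a median log2 fold change of 1.05, which was 0.21 without IDPN 2, the highest library for Tsc22d3, Sgk1 and several others.

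**Figure D4:**
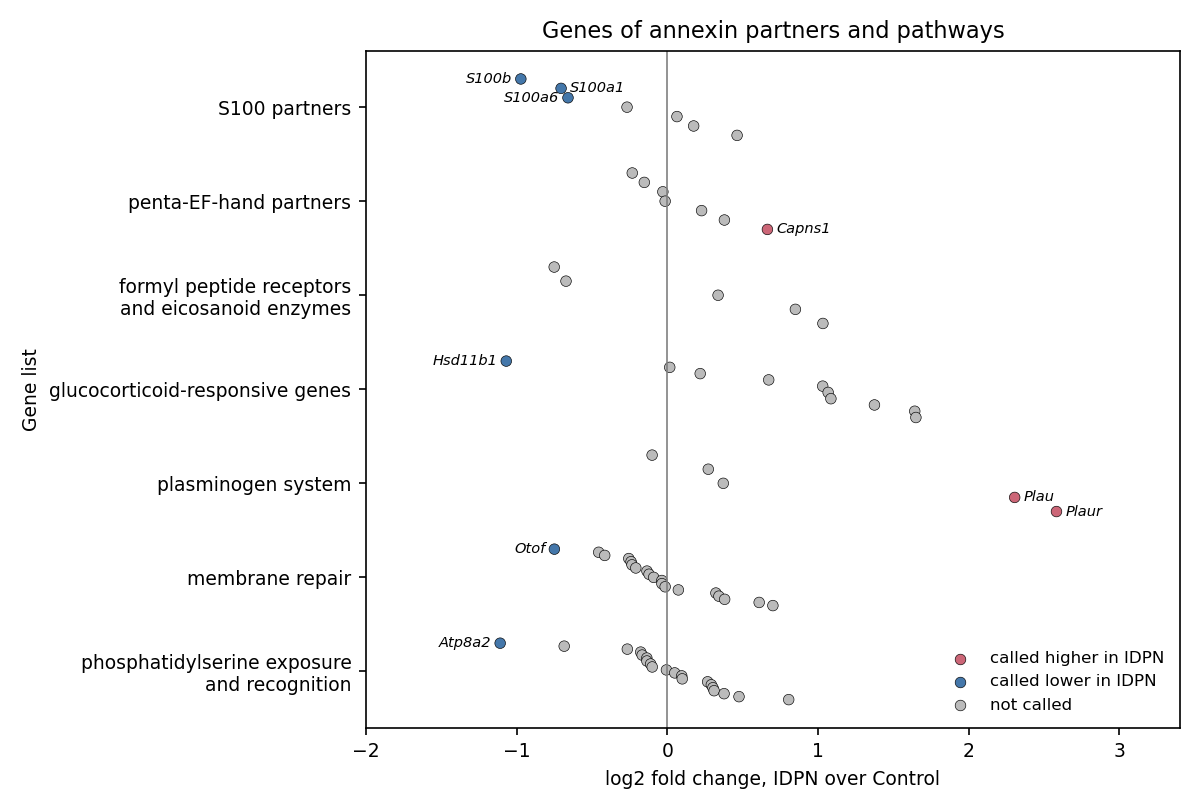
Fitted log2 fold changes, IDPN over Control, of the tested genes in 7 annexin partner and pathway lists, with called genes in color and named. Plau and Plaur lie farthest to the right (2.30 and 2.58), and Atp8a2, Hsd11b1 and S100b farthest to the left (-1.11, -1.07 and -0.97).

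Of the calcium-binding penta-EF-hand partners, 1 of 7 was called. Capns1, the small calpain subunit, was at 938 ± 132 in Control and 1486 ± 404 in IDPN (log2 fold change 0.66, SE 0.22, DESeq2 Padj = 0.0397), but the call was lost in edgeR (adjusted p = 0.105) and in 5 of the 6 fits that left out 1 library, with DESeq2 Padj from 0.0559 (without Control 2) to 0.281 (without IDPN 2). The Anxa7 and Anxa11 partners Sri (log2 fold change -0.23, SE 0.16, DESeq2 Padj = 0.511) and Pdcd6 (-0.15, SE 0.17, DESeq2 Padj = 0.734) were not called. Of 19 tested membrane repair genes, 1 was called, the HC synaptic ferlin Otof, which is also an HC marker (4646 to 4890 normalized counts in Control, 2631 to 3029 in IDPN, DESeq2 Padj = 1.71e-05, but 0.196 under total-count scaling). Dysf, the ferlin that acts with Anxa1 and Anxa2 at muscle wounds, differed by -0.09 (SE 0.42, DESeq2 Padj = 0.954). Of 20 tested genes of phosphatidylserine exposure and recognition, the ligand of Anxa5, 1 was called: the flippase Atp8a2 fell from 1201 ± 228 to 556 ± 120.1 normalized counts (DESeq2 Padj = 2.41e-05, but 0.0588 under total-count scaling).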

How the data were processed

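Per the study's methods and the submitters' notes, the authors aligned reads with STAR 2.5.3a to GRCm38 and estimated gene counts with RSEM 2.3.0. The authors deposited the RSEM estimated counts rounded to whole numbers and not normalized, for 6 libraries (3 per group, grouped by the labels, 1 animal each) of 40474847 to 43566332 counts. RSEM splits reads that match several genes. DESeq2 1.42.0 (R 4.3.3, Wald test, median-of-ratios size factors, independent filtering) was fitted on all genes. Its Cook filter left 40 genes without a p. Alternatives were edgeR 4.0.16 (quasi-likelihood), total-count scaling, a low-count filter (10 counts in 3 libraries), filters off, no fold threshold and leaving out each library. The code was tested on simulated data. Lengths (found for 99.7% of genes), positions and shared windows came from GENCODE M21, a later release than the authors' annotation. Likeness was Pearson's r of log2(normalized count + 1), over named genes of mean at least 100. The members and lists were chosen with earlier results of these data known. Named genes were all annexins, fixed partners, at most 6 called genes per list and the 5 genes most like Anxa1, of which 1 is not reported here.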

Additional observations from a re-analysis of the deposited data

How the results depend on the processing

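Among the annexins, 1 was called higher and 0 lower in edgeR, under total-count scaling and with the low-count filter. The same held with either DESeq2 filter off and with each library left out. As the members were chosen with these counts known, nothing is read from these calls. Genes called higher numbered 410, but 166 in edgeR and 234 to 611 when 1 library was left out. Genes called lower numbered 604, but 357 in edgeR, 214 under total-count scaling and 436 to 720 with 1 library left out. Partner genes called higher (3) became 0 in edgeR, 5 under total-count scaling and 0 to 3 with 1 library left out, and those called lower (6) became 2 under total-count scaling and 4 to 6 with 1 library left out. Only the S100b and Hsd11b1 values stayed called with each library left out and under total-count scaling. In edgeR, Hsd11b1 stayed called (adjusted p = 0.00887) and S100b did not (0.0844). The Control share of Anxa5 was 74.9% with longest-transcript lengths, against 82.1%, and 81.0% to 83.2% with 1 library left out. The cause of these shifts was not tested. No paired analysis was possible because the labels give no replicate numbers that the groups share. With 3 libraries per group, the standard errors of the annexin log2 fold changes ran from 0.16 (Anxa6) to 0.27 (Anxa9). List medians without IDPN 2, and the macrophage and mast cell sums without Lyz2 and Kit, were chosen after seeing the data.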
